A study of Mus musculus with 12 samples.

Results

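The genes described here are 6 genes of the B cell lineage, Cd79a, Cd79b, Ms4a1, Blk, Pax5 and Ebf1, followed through RNA sequencing of mouse osteoclast cultures. They were taken by gene symbol, and all 6 had a row among the 55806 genes of the deposited expression table. Osteoclasts are the bone-resorbing cells that arise when cells of the monocyte lineage fuse. Here monocytes from the bone marrow of mice aged 8 to 12 weeks were cultured with M-CSF and RANKL, the cytokines that keep such cells alive and turn them into osteoclasts, and RNA was taken on day 4. All 12 libraries share that source, treatment and time, and they differ in sex and in Per2 genotype. Controls and Per2 knockouts were each cultured from male and from female mice, which makes 4 groups with 3 libraries apiece, 1 from every labelled batch. Per2 encodes a repressor of the circadian clock. Library names carry "cKO", the usual abbreviation for conditional knockout, but the labels give no allele, Cre driver or strain, and the series title names PER1 while every sample label names Per2. The samples are called biological replicates but the labels do not say which came from separate mice. The p-values here describe the spread among libraries.

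Mature B cells carry a B cell receptor, an immunoglobulin held at the membrane by the signalling pair that Cd79a and Cd79b encode. Ms4a1 encodes the surface protein CD20, Blk encodes a Src-family kinase that acts below the receptor, and Ebf1 and Pax5 encode the transcription factors that specify B cells and then hold them to that fate. B cells are made in the bone marrow, so they are neighbours of the monocytes that osteoclast cultures start from. In bulk RNA, fewer B lineage cells and less of their RNA per cell cannot be told apart.

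The promoter of Cd79a, known as the mb-1 promoter, is the textbook target of EBF1, the protein that Ebf1 encodes, and its sequence is shown because both partners are among the 6 genes. The 250 bases before its RefSeq start, at chr7:24897247-24897496 on the plus strand of GRCm38.p6, are given 5′ to 3′, with a match to CAAGGGAA, the form of the EBF1 site in this promoter, in capitals.
Cd79a: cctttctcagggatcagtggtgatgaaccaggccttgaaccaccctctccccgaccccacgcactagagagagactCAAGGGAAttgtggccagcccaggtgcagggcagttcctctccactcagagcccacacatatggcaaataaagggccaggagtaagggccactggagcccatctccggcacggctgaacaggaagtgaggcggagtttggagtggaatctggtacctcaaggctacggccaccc
The match begins 174 bases before the start. RefSeq windows running from 250 bases before to 50 after a start were found for 3 of the 6 genes, namely Cd79a, Pax5 and Ebf1, the last with 2 windows. Among 32851 such windows, 1.49% held CAAGGGAA on either strand. The octamer ATTTGCAT was in 1.74%, and the palindrome CCCNNGGG in 13.7%, both strands searched. None of these motifs overlapped another in the windows of the 3 genes, where the Cd79a match was the single hit. A match describes letters in a window, not a bound site.

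Reads assigned to genes ran from 13888150 to 17762190 per library, except for male knockout 2 with 41145397. Osteoclast genes were high in every library: Ctsk, the bone-degrading protease cathepsin K, ran from 3620 to 5800 FPKM (fragments scaled by gene length and by the size of the library, the unit of the deposited values). Per2 itself stayed under 1 FPKM throughout. Per2 was 0.579, 0.721 and 0.701 FPKM in male controls against 0.466, 0.39 and 0.23 in male knockouts, with no overlap (p = 0.1 by a two-sided exact permutation test, which cannot go lower with 3 against 3). In females the controls had 0.331, 0.53 and 0.368 FPKM and the knockouts 0.258, 0.204 and 0.589, so the groups overlapped (exact permutation p = 0.6). The library labelled female knockout 3 therefore had more Per2 than any female control. The female controls stood apart across the whole table: of the 12102 genes with at least 1 FPKM in at least 3 libraries, 22.8% were higher in all 3 female controls than in each of the 9 other libraries. The share was 11.1% of the 28148 genes above 0 anywhere. The summed level of 14 interferon-stimulated genes was 227 to 296 FPKM in the female controls, 2050 to 2810 in their knockouts and 5240 to 5980 across males.

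All 6 B cell genes were highest on average in the female controls, and in 6 of 6 the female controls lay above the female knockouts with no overlap, as did 29.9% of the 12102 tested genes. In 6 of 6 they also lay above the male controls with no overlap, as did 32.2%. Pax5 and Ebf1 did not reach 1 FPKM in 3 libraries, so they are not among the 12102 genes behind any no-overlap share given here. The mean of the female controls was 3.7 times that of the female knockouts for Cd79a, 1.69 times for Cd79b, 3.97 times for Ms4a1, 4.45 times for Blk, 4.36 times for Pax5 and 4.99 times for Ebf1. The male controls, male knockouts and female knockouts overlapped for every one of the 6. For 5 of the 6 genes the female controls were above all 9 other libraries, and Cd79b was the exception. The same rule was met by 22.8% of all tested genes and by 11.1% of the 28148 genes above 0 anywhere.

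**Figure D1:**
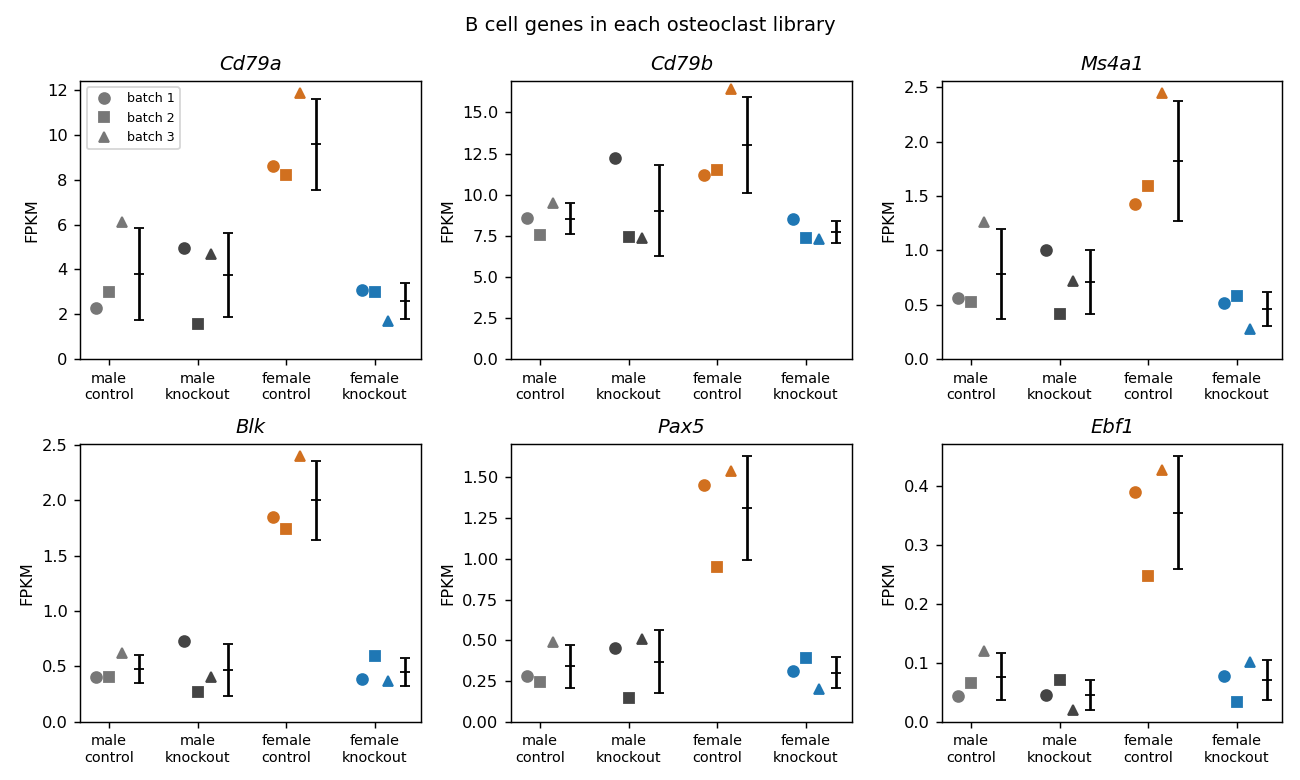
FPKM (y axis, linear from 0) of the 6 B cell genes in each of the 12 libraries by group (x axis). Each point is 1 library with its shape giving the batch, and the bar to the right of each group is the mean ± SD (n = 3). The 3 female controls sit above all other points except for Cd79b, where male knockout 1 reaches 12.2 FPKM.

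Among the receptor's signalling pair, Cd79a was 2.29, 2.99 and 6.11 FPKM in male controls and 4.96, 1.57 and 4.71 in male knockouts. It was 8.63, 8.22 and 11.9 FPKM among female controls and 3.08, 3.01 and 1.68 among female knockouts. The highest library outside the female controls was male control 3, still under the lowest female control. Group means were 3.79 ± 2.03, 3.75 ± 1.89, 9.59 ± 2.04 and 2.59 ± 0.786 FPKM in the same order (SD, n = 3). On the log2(FPKM + 1) scale used for all limma fits, which understates changes of low genes, Cd79a fell by 1.57 ± 0.35 (SE) in female knockouts against female controls (limma, Benjamini-Hochberg adjusted p = 0.00331).

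Cd79b, its partner, was 8.59, 7.55 and 9.48 FPKM in male controls and 12.2, 7.45 and 7.39 in male knockouts. Female controls had 11.2, 11.5 and 16.4 FPKM and female knockouts 8.5, 7.38 and 7.27. Cd79b was thus the most abundant of the 6 genes per length and the one that varied least, with group means of 8.54 ± 0.964, 9.01 ± 2.76, 13.0 ± 2.95 and 7.72 ± 0.681 FPKM (SD, n = 3). It fell by 0.67 ± 0.18 (SE) on the log2 scale in female knockouts (limma adjusted p = 0.00967). Within a library, Cd79a over Cd79b was 0.717 to 0.771 in female controls, 0.231 to 0.408 in female knockouts, 0.266 to 0.644 in male controls and 0.211 to 0.637 in male knockouts. The pair therefore did not keep 1 ratio, and the female controls were above every other library.

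Ms4a1, the CD20 gene, was 0.558, 0.527 and 1.26 FPKM in male controls and 1.0, 0.412 and 0.715 in male knockouts. Female controls had 1.43, 1.59 and 2.45 FPKM and female knockouts 0.517, 0.58 and 0.279. Male control 3 and male knockout 1 led the 9 other libraries, as they did for Cd79a. The female means were 1.82 ± 0.551 and 0.459 ± 0.159 FPKM, against 0.781 ± 0.413 in male controls and 0.711 ± 0.296 in male knockouts (SD, n = 3). Only 2 libraries outside the female controls reached 1 FPKM, so Ms4a1 passed the filter of 1 FPKM in 3 libraries only through the group where it was high. Its log2 difference in female knockouts was -0.94 ± 0.20 (SE; limma adjusted p = 0.00221), with an adjusted p of 0.00733 when limma was run without the filter, on the 28148 genes above 0 anywhere.

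Blk, the Src-family kinase, was 0.404, 0.403 and 0.623 FPKM in male controls and 0.729, 0.266 and 0.404 in male knockouts. Female controls had 1.85, 1.74 and 2.4 FPKM and female knockouts 0.388, 0.591 and 0.369. No library outside the female controls reached 1 FPKM, so Blk too entered the fit only through the group where it was high and had to differ there. Means were 0.477 ± 0.127, 0.466 ± 0.238, 2.0 ± 0.35 and 0.449 ± 0.123 FPKM in male controls, male knockouts, female controls and female knockouts (SD, n = 3). Its log2 difference in female knockouts was -1.05 ± 0.14 (SE; limma adjusted p = 0.000125, and 0.000349 without the filter).

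The transcription factors were the lowest of the 6, and both stayed under the filter of 1 FPKM in 3 libraries. Pax5 was 0.28, 0.246 and 0.492 FPKM in male controls and 0.451, 0.147 and 0.507 in male knockouts. Female controls had 1.45, 0.948 and 1.54 FPKM and female knockouts 0.309, 0.39 and 0.202. The lowest female control was above every other library. Group means were 0.339 ± 0.133, 0.368 ± 0.194, 1.31 ± 0.318 and 0.3 ± 0.0943 FPKM (SD, n = 3).

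Ebf1 was 0.0434, 0.0656 and 0.121 FPKM in male controls and 0.0455, 0.0708 and 0.0197 in male knockouts. Female controls had 0.391, 0.247 and 0.428 FPKM and female knockouts 0.0776, 0.034 and 0.102. These values rest on 45 to 62 reads in the female controls and on 3 to 26 reads in each other library, so the order among those 9 libraries is not resolved at this depth. For Pax5 and Ebf1 alike the female knockouts against female controls gave p = 0.1 by an exact permutation test on FPKM, again as low as the design can reach.

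Read as counts, the knockout difference in females held for all 6 genes. The deposited values of each library were whole multiples of what 1 read is worth, which gave the reads per gene back (at least 99.5% of values above 0 whole within 0.01). With voom on those reads, which also admits low genes, 6 of 6 fell in female knockouts, beside 14.5% of the 20217 genes in that fit. Pax5 fell by 2.09 ± 0.38 (SE) on the log2 scale (voom adjusted p = 0.000211) and Ebf1 fell by 2.31 ± 0.44 (SE) (voom adjusted p = 0.000384). In the limma fit on FPKM, 4 of the 4 genes that passed the filter fell, beside 24.9% of the 12102 genes tested. That count takes in Ms4a1 and Blk, which the filter admitted through the female controls, so it supports nothing beyond the single genes.

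Ratios within each batch give only the size of the female difference. Since the 2 groups did not overlap for any of the 6 genes, any pairing of these libraries gives a ratio above 1. Female control over female knockout within batches 1, 2 and 3 was 2.8, 2.73 and 7.09 for Cd79a, 1.32, 1.55 and 2.26 for Cd79b, and 2.75, 2.74 and 8.8 for Ms4a1. The same ratio was 4.77, 2.95 and 6.51 for Blk, 4.69, 2.43 and 7.61 for Pax5, and 5.04, 7.24 and 4.2 for Ebf1. Batch 3 gave the widest ratio for 5 of the 6 genes, and the Ebf1 ratios, which rest on 5 to 15 reads in each female knockout, cannot be ranked. In batch 3 the female control was the highest library for all 6 genes.

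In males no B cell gene passed a test of knockout against control. Male control over male knockout within batches 1, 2 and 3 was 0.46, 1.9 and 1.3 for Cd79a, 0.555, 1.28 and 1.76 for Ms4a1 and 0.621, 1.67 and 0.971 for Pax5, so the sign turned between batches. The male groups overlapped for all 6 genes, beside 5.24% of tested genes lower and 7.06% higher in knockouts with no overlap. The 4 tested genes had log2 differences from -0.05 to 0.04 (limma adjusted p from 0.985 to 0.994), and 0 of 4 passed, as did 0.0% of all genes tested. None of the 4 had an unadjusted p under 0.05, and voom called 0 of 6 beside 0.00989% of its genes. The exact permutation test gave p = 0.9 for Pax5 and 0.5 for Ebf1. The limma SE of 0.14 to 0.35 on the log2 scale leaves room for moderate differences in either direction.

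**Figure D2:**
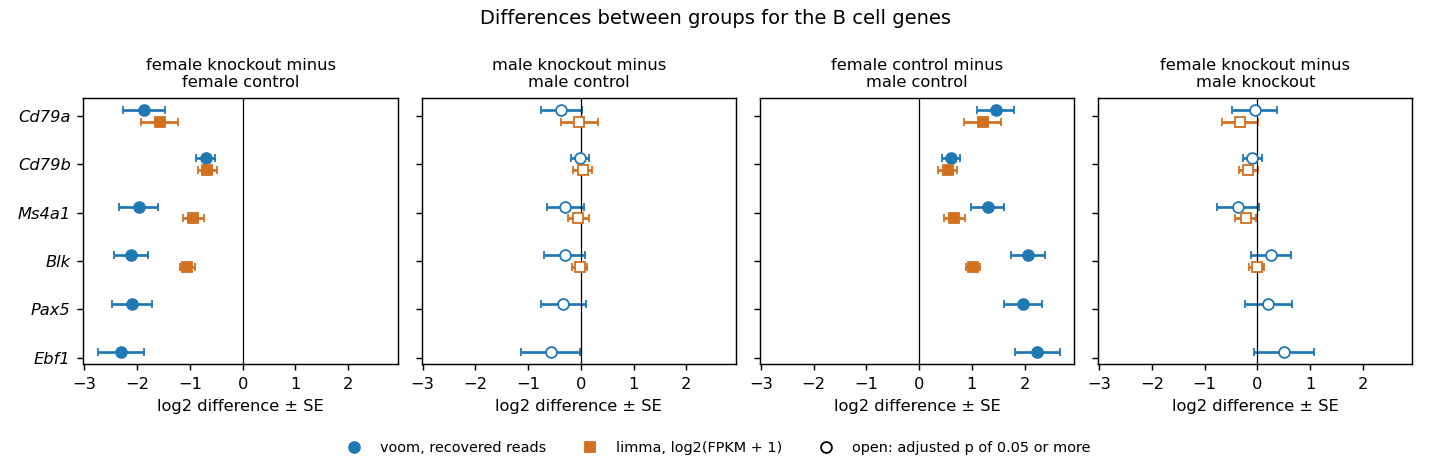
Log2 differences ± SE (x axis) of the 6 B cell genes (y axis) in 4 comparisons, from voom on recovered reads (circles) and from limma on log2(FPKM + 1) (squares), with open symbols for an adjusted p of 0.05 or more. Filled symbols fill both panels that involve the female controls, while all symbols are open in the male panel and in the panel of female against male knockouts; Pax5 and Ebf1 have no square because they were under the filter.

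Set against male controls, the same 3 female controls were higher for 4 of the 4 tested genes (limma), beside 29.5% of all genes, but Ms4a1 and Blk entered that fit only because the female controls were high. The log2 difference was 1.21 ± 0.35 (SE) for Cd79a (limma adjusted p = 0.0109) and 0.54 ± 0.18 for Cd79b (limma adjusted p = 0.022). It was 0.67 ± 0.20 for Ms4a1 (limma adjusted p = 0.0116, and 0.0309 without the filter) and 1.02 ± 0.14 for Blk (limma adjusted p = 8.22e-05, and 0.000226 without the filter). Cd79b was not past the threshold without the filter on low values (limma adjusted p = 0.0626) or without male control 2 (limma adjusted p = 0.0763). Without female control 3, which was the highest of the 12 libraries for each of the 6 genes, 2 of the 4 still passed, Cd79a and Blk. With voom 6 of 6 were higher, beside 20.0% of genes, including Pax5 with 1.97 (adjusted p = 0.000151) and Ebf1 with 2.24 (adjusted p = 0.000231). This comparison and the one within females share the female controls and are not independent of each other.

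Between the knockouts of either sex no difference was detectable. Female knockouts minus male knockouts gave log2 differences of -0.33 ± 0.35 for Cd79a, -0.17 ± 0.18 for Cd79b, -0.22 ± 0.20 for Ms4a1 and -0.01 ± 0.14 for Blk (SE; limma adjusted p from 0.421 to 0.974). None of the 4 passed and none had an unadjusted p under 0.05, beside 20.4% of all genes lower and 13.1% higher, and voom called 0 of 6, beside 10.9% of its genes lower and 8.79% higher. The groups overlapped for all 6 genes, beside 27.9% of tested genes lower and 20.9% higher with no overlap. The exact permutation test gave p = 0.6 for Pax5 and 0.4 for Ebf1.

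The knockout effect itself differed between the sexes for 3 of the 4 tested genes, beside 16.7% of all genes in the same direction. The female effect minus the male effect was -1.54 ± 0.49 (SE) on the log2 scale for Cd79a (limma adjusted p = 0.0325), -0.89 ± 0.28 for Ms4a1 (limma adjusted p = 0.0284) and -1.03 ± 0.20 for Blk (limma adjusted p = 0.00262). For Cd79b it was -0.71 ± 0.25 (limma adjusted p = 0.0506). Blk alone still passed when male control 1, male control 2, male knockout 1, female control 3 or female knockout 3 was left out. Cd79b passed with Blk when male knockout 3 was left out. Without the filter on low values, which had admitted Ms4a1 and Blk through the female controls, Cd79a and Ms4a1 did not pass (limma adjusted p = 0.0959 and 0.073) and Blk did (limma adjusted p = 0.00589). In that unfiltered fit Pax5 and Ebf1 also passed (limma adjusted p = 0.017 and 0.0255), and Cd79b did not (0.136). The share of all genes called there is not given here. Voom called 3 of 6, Ms4a1, Blk and Pax5, beside 9.72% of its genes, with Cd79a at an adjusted p of 0.0596. With the batch as a block as well, voom called 5 of 6, and the share of all genes called in that fit is not given here.

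Averaged over both sexes, Cd79a, Ms4a1 and Blk had log2 differences of -0.80, -0.49 and -0.53 (limma adjusted p = 0.0274, 0.0176 and 0.00209), beside 16.0% of all genes, and Cd79b was not called (-0.31, limma adjusted p = 0.0775). Ms4a1 and Blk passed the filter only through the female controls, and without it their limma adjusted p was 0.0486 and 0.00488. Cd79a did not pass without the filter (limma adjusted p = 0.0838) or without male control 3, female control 3 or female knockout 3. In the unfiltered fit Pax5 and Ebf1 passed (limma adjusted p = 0.023 and 0.00735) and Cd79b did not (0.195). The share of all genes called in it is not given here. Voom called 6 of 6 beside 8.22% of its genes. Over the 400 within-sex regroupings, whose smallest exact permutation p is 0.005, Pax5 gave 0.06 and Ebf1 0.025. These averages hold a female difference and a male value near 0.

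Outside the female controls 5 of the 6 genes were high in the same libraries. Male control 3 and male knockout 1 were the top 2 of the 9 other libraries for Cd79a, Cd79b, Ms4a1 and Blk, and with male knockout 3 they were the top 3 for Pax5. Male knockout 2, the most deeply sequenced library, was the lowest of the 9 for Cd79a, Blk and Pax5. Ebf1, with few reads, had another order. By Pearson correlation of log2(FPKM + 0.1) over 12 libraries that share these groups, among 12482 protein-coding genes, the genes most like Cd79a included Ms4a1 (r = 0.969) and Gm8113 (0.961). Ms4a1 was most like Clcf1 (0.972), Cd79a (0.969) and Srpk3 (0.967). Those most like Pax5 included Chst3 (0.969) and Blk (0.956), and Blk was most like Tsc22d1 (0.974), Mmp12 (0.963) and Pax5 (0.956). Over the 9 other libraries, r was 0.93 for Cd79a with Ms4a1 and 0.79 for Pax5 with Blk. It was of like size with genes outside the 6. Over those libraries Ms4a1 had 0.95 with Clcf1 and 0.95 with Srpk3, and Cd79a had 0.89 with Gm8113. Pax5 had 0.86 with Chst3, and Blk had 0.81 with Tsc22d1 and 0.79 with Mmp12. Cd79b was most like Rad52, Srpk3 and Ldb1 (0.929 to 0.93), and Ebf1 was most like Rpl15, Kiz and Unc119b (0.96 to 0.986), none of them genes that mark B cells.

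Other B lineage genes did not all move with the 6. Of 15 surface and signalling genes, 10 were tested in females by limma: 6 fell in knockouts and 2 rose, with a median log2 difference of -0.64 against -0.01 over all genes. Of all 12102 genes tested, 24.9% fell and 24.9% rose in that comparison, and every list count within females is to be read beside those shares. Those that fell were Ly6d, Fcmr, Fcrl1, H2-Ob, Fcrla and Tnfrsf13c, of which H2-Ob, Fcrla and Tnfrsf13c passed the filter only through the female controls (limma adjusted p without the filter 0.00567, 0.0312 and 0.00723). Cd72 and Cd37, also made by myeloid cells, rose, though Cd37 did not pass without the filter (limma adjusted p = 0.0595). Cd72 was 16.2 to 20.2 FPKM in the female controls, 29.3 to 38.2 in their knockouts and 56.9 to 71.0 across males, so here the female controls were the lowest (log2 difference within females 0.89 ± 0.12, limma adjusted p = 0.000108).

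Of 12 B lineage transcription factors, 8 were tested: Pou2af1, Tcf3, Spib and Foxo1 fell in female knockouts, and Irf8, Ikzf1, Bcl6 and Pou2f2 rose (limma, median 0.06). Spib and Foxo1 did not pass without the filter (limma adjusted p = 0.0867 and 0.0523). Pou2af1, the B cell coactivator also called OCA-B, was 1.76 to 2.78 FPKM among female controls and 0.208 to 0.617 among female knockouts (log2 difference -1.25 ± 0.21). It passed the filter only through the female controls, and without the filter its limma adjusted p was 0.00216. Irf8, a factor of both B cells and monocytes, rose by 0.71 ± 0.12 (limma adjusted p = 0.000594). With voom, Bach2 and Ikzf3 also fell.

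Of 10 genes of B cell precursors, 4 were tested by limma, of which Vpreb3 and Myb fell in female knockouts and Cplx2 rose. Myb did not pass without the filter (limma adjusted p = 0.0555). Vpreb3, a protein of the precursor receptor complex, was 1.56 to 2.59 FPKM among female controls and 0.232 to 0.926 among female knockouts (log2 difference -1.08 ± 0.26). It too passed the filter only through the female controls, and without the filter its limma adjusted p was 0.0174. Rag1, the recombinase that joins receptor gene segments in developing B and T cells, was too low for that fit. It was 1.04, 0.429 and 0.826 FPKM in female controls, 0.123, 0.0804 and 0.0502 in female knockouts and at most 0.104 in the males, and fell by 3.03 ± 0.62 (SE) with voom (adjusted p = 0.000761). The surrogate light chain was all but missing: Igll1 was at most 0.0591 FPKM, Vpreb1 was 0 in all 3 female controls, and Vpreb2 was 0 in all 12 libraries, which allows up to 3 reads in each. Il7r, the receptor for interleukin 7, was 10.5 to 12.6 FPKM among female controls and 11.7 to 13.3 among female knockouts, against 24.2 to 33.8 in males.

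**Figure D3:**
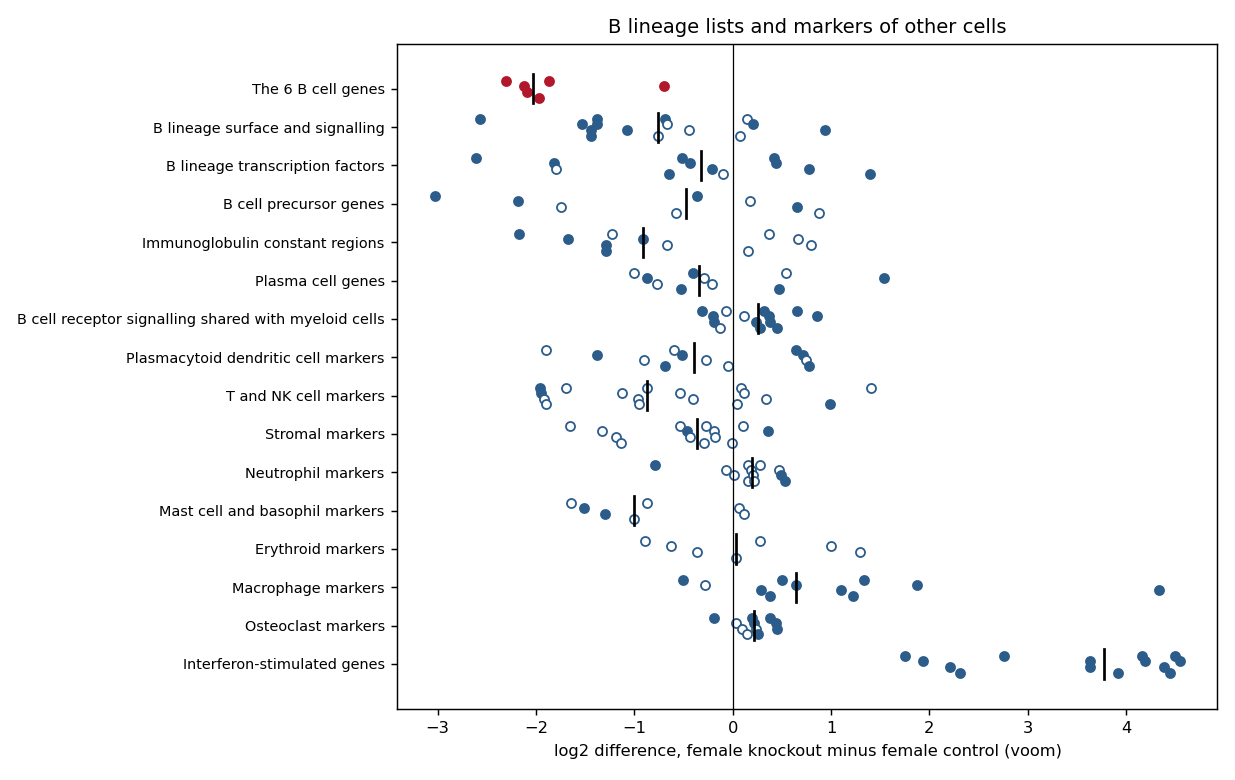
Log2 difference of female knockout minus female control (x axis, voom on recovered reads) for the genes of 16 lists (y axis). Each point is a gene, filled where the adjusted p is under 0.05, and the black bar is the list's median. The 6 B cell genes, in red, all lie left of 0 and are all filled, whereas the other B lineage lists hold filled points on either side or open points.

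Some immunoglobulin genes were called and others were not, and a difference between classes was not tested. Of 12 constant region genes 9 were tested within females by limma, and 4 fell in knockouts while 0 rose (median -0.91). Those 4 were Ighm and Ighd, the heavy chains of IgM and IgD that naive B cells display, and the lambda light chains Iglc2 and Iglc3. Ighm was 44.0 to 52.3 FPKM among female controls and 21.5 to 29.6 among female knockouts (log2 difference -0.91 ± 0.21, limma adjusted p = 0.00372). Ighd was 3.98 to 7.63 and 1.29 to 2.03 FPKM (-1.25 ± 0.28, limma adjusted p = 0.00306). The kappa chain Igkc did not pass, with 44.6 to 60.8 FPKM in the female controls, 21.5 to 44.4 in their knockouts and 21.0 to 71.9 across males (within females -0.67 ± 0.40, limma adjusted p = 0.189). The lambda chain Iglc1 was 7.42 to 11.7 FPKM among female controls and 3.07 to 5.55 among female knockouts. Limma did not call it, while voom did, beside 14.5% of its genes. Both Igkc and Iglc1 were lower in female knockouts with no overlap, as were 29.9% of the 12102 tested genes.

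The heavy chains Ighg2b and Igha, of switched classes, ran the other way between the sexes. Ighg2b, an IgG heavy chain, was 1.48 to 4.83 FPKM in female controls and 4.63 to 15.1 in male controls (log2 difference -1.42 ± 0.49, limma adjusted p = 0.0255). Igha, the IgA heavy chain, was 1.84 to 2.27 and 4.05 to 8.86 FPKM in the same groups (-1.06 ± 0.32, limma adjusted p = 0.0143). Ighg2c, with means of 1.92 and 3.64 FPKM, did not pass (limma adjusted p = 0.355), and Ighg3, with 0.477 and 0.315 FPKM, was under the filter and did not pass with voom (adjusted p = 0.5). Ighg1 had 0.416 and 1.24 FPKM (voom adjusted p = 0.0527). Neither Ighg2b nor Igha passed between female knockouts and controls (limma adjusted p = 0.441 and 0.486). Among 10 plasma cell genes, 6 were tested within females, where Sdc1, Prdm1 and Irf4 fell and Xbp1 and Cd38 rose, with Irf4 admitted by the filter only through the female controls (limma adjusted p without it 0.0135). The most specific of them did not pass in either fit: Jchain, which links IgA and IgM units, was 0.964 to 2.49 FPKM among female controls and 0.924 to 1.85 among female knockouts (limma adjusted p = 0.765). Mzb1, a chaperone of antibody-secreting cells, was under 1 FPKM in all libraries. Sdc1 was 97.1 FPKM or more in each library, and Xbp1 36.9 or more, far above Jchain.

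The light chains did not keep 1 ratio between libraries. Igkc over the sum of Iglc1, Iglc2 and Iglc3 was 2.78, 2.7 and 1.64 among female controls and 5.07, 3.03 and 5.12 among female knockouts. It was 10.3, 7.25 and 5.69 in male controls and 5.67, 4.7 and 4.81 in male knockouts, so the female controls were the lowest of the 12. Iglc2 and Iglc3 are near-identical copies, so their single values are uncertain and a sum is the safer figure. Reads on the 346 immunoglobulin variable segments came to 30.5, 30.6 and 29.5 RPM, scaled to the reads assigned to genes, among female controls and 19.0, 14.7 and 20.7 among female knockouts. Male control 3 had 40.8 and male knockout 1 had 31.7, above all 3 female controls, while the other male libraries had 11.5 to 17.3. Between 74 and 112 segments were above 0 per library. The lambda segment Iglv1, on chromosome 16, had the highest mean, with 8.89 to 12.8 FPKM in the female controls, 2.04 to 5.76 in their knockouts and 1.63 to 9.23 across males.

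**Figure D4:**
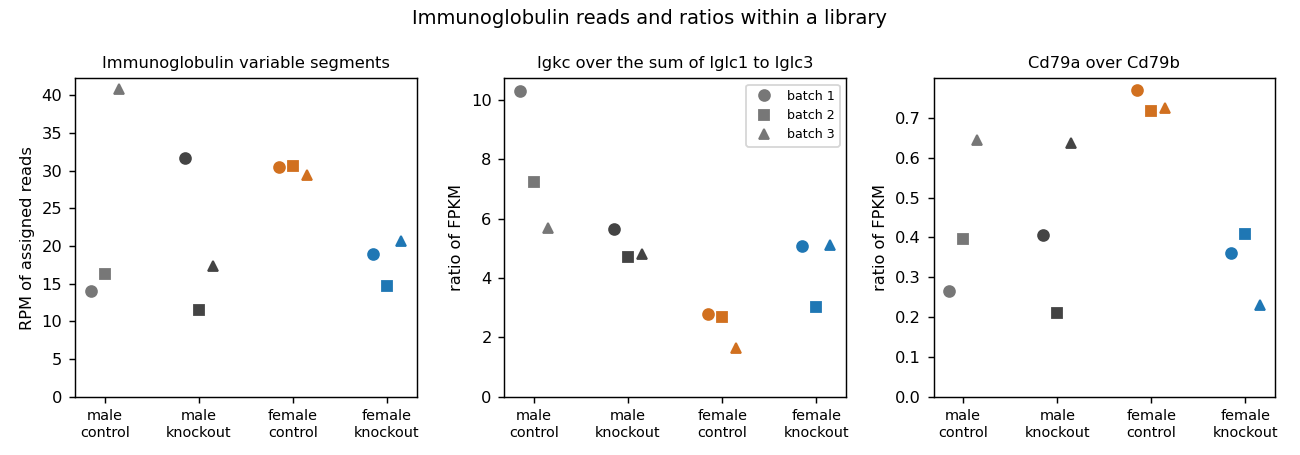
Reads on immunoglobulin variable segments in RPM of assigned reads (left), the FPKM ratio of Igkc to the summed lambda constant genes (middle) and the FPKM ratio of Cd79a to Cd79b (right) for each library by group, with batch given by the shape. Male control 3 is highest on the left at 40.8, and the female controls are lowest in the middle (1.64 to 2.78) and highest on the right (0.717 to 0.771).

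Of 14 genes of B cell receptor signalling shared with myeloid cells, all tested, 8 rose in female knockouts and 3 fell (limma). The share of all genes was 24.9% in each direction, and the list's median log2 difference was 0.24. Lyn, a Src-family kinase of both lineages, rose by 0.35 ± 0.06 (SE) on the log2 scale (limma adjusted p = 0.000652). The 3 that fell were Btk, Prkcb and Blnk. Without the filter Blnk did not pass, nor did Fcgr2b, which had risen (limma adjusted p = 0.0529 and 0.0556).

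Markers of other cells gave these values beside the 6 genes. Of 12 plasmacytoid dendritic cell markers, 8 were tested in females: 4 rose and 3 fell (Siglech, Ly6d and Spib, the last 2 also in the B lineage lists), and the list's summed level was 42.0 to 50.3 FPKM among female controls and 40.8 to 49.2 among female knockouts. Siglech, which marks those cells, was 3.0 to 3.9 FPKM among female controls and 1.77 to 2.46 among female knockouts. Spib, and Cox6a2 among those that rose, did not pass without the filter (limma adjusted p = 0.0867 and 0.0888). Of 17 T and NK cell markers 6 were tested and 1 rose, with sums of 9.63 to 13.2 and 10.4 to 13.2 FPKM. Cd3e was at most 0.137 FPKM anywhere, but the 6 tested genes reached 1 FPKM in at least 3 libraries. Among those 6, Nkg7 did so in 12 libraries, Trac in 7 and Trbc2 in 3. With voom, Cd2 and Klrb1c of that list fell. Of 10 mast cell and basophil markers 6 were tested and 2 fell, Prss34 and Mcpt8, with sums of 21.6 to 41.5 FPKM among female controls and 11.3 to 16.4 among female knockouts. The summed level was thus lower in female knockouts, but the other 4 tested genes of that list were not called. Prss34 had the highest mean of the list, 14.7 FPKM, against 3.96 for Mcpt8, the next. Neither of these 2 passed without the filter (limma adjusted p = 0.0614 and 0.123). In males the sum was 14.4 to 33.8 FPKM in controls and 21.3 to 52.3 in knockouts. Stromal markers (8 tested, 1 rose, 1 fell), neutrophil markers (12 tested, 2 rose, 1 fell) and erythroid markers (2 tested, 0 called and 0 at an unadjusted p under 0.05, also 0 of 7 with voom) gave few calls in females. Without the filter the neutrophil genes Retnlg, Cxcr2 and Prtn3 and the stromal gene Vcam1 lost their calls (limma adjusted p from 0.0734 to 0.111). The summed level in female controls and then in female knockouts was 22.0 to 45.0 and 17.9 to 32.1 FPKM for stromal, 2520 to 2700 and 2440 to 3150 for neutrophil, and 6.08 to 8.99 and 5.31 to 5.52 for erythroid markers. Beside the 24.9% of all genes that rose and the 24.9% that fell in females, 9 of 10 tested macrophage markers rose and Cx3cr1 fell. Their sums were 7110 to 8810 FPKM in female controls and 12100 to 13300 in female knockouts. Those sums are mostly Lyz2, with a mean of 10400 FPKM over the libraries against 769 for Cd68, the next. Lyz2 did not pass without the filter (limma adjusted p = 0.366). Of 11 osteoclast markers, 5 rose and Nfatc1 fell, with sums of 8830 to 9770 and 10500 to 12800 FPKM. Without the filter Nfatc1 did not pass, nor did Acp5, Mmp9 and Ocstamp, which had risen (limma adjusted p from 0.0621 to 0.0826). The part of any of these in the differences of the B cell genes was not tested.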

How the data were processed

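RNA of 12 libraries was measured, and 1 table of FPKM per gene was deposited by the authors. HISAT2 2.0.5, featureCounts 1.5.0-p3 and mm10 are named in the submitters' processing notes, and the strand setting is not given in the sources used here. Positions in the table matched the GRCm38 annotation for 2.87% of shared IDs, so none are printed for genes. Per the table's positions, 1 gene overlaps Ms4a1, 4 overlap Pax5 and 1 overlaps Ebf1, none above 0.195 FPKM.

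The main test was limma 3.58.1 (R 4.3.3) with trend on log2(FPKM + 1), 4 group means over all 12 libraries, two-sided, adjusted over 12102 genes, threshold 0.05. Pax5 and Ebf1, under the filter, had exact permutation tests. Reads were recovered from the FPKM steps for voom, with a minimum of 10 reads and library scaling by a trimmed mean of M values; it was tested on simulated data. Alternatives were another pseudocount, no filter, the batch number as a block, voom, rescaling, and leaving out each library. The labels make the replicate number the batch, which pairs libraries, although deviations of same-numbered libraries correlated at 0.02 on average (18 pairs, -0.118 to 0.092). No 2 libraries of a group agreed within counting noise. The members and lists were chosen with earlier results of these data known. Named genes were the 6, the 4 highest of each list, and the 3 most alike to each member; others were named after their values were seen. Some listed genes are not reported here, and the list counts leave them out.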

Additional observations from a re-analysis of the deposited data

Results flagged for a closer look

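The knockout effect differed between the sexes for 3 of the 4 tested B cell genes by a test of the difference itself. Of all 12102 genes tested, 16.7% were called in the same direction. The female minus male effect on the log2(FPKM + 1) scale was -1.54 for Cd79a (limma adjusted p = 0.0325), -0.89 for Ms4a1 (limma adjusted p = 0.0284) and -1.03 for Blk (limma adjusted p = 0.00262). In each of the 3, all 3 female knockouts were below all 3 female controls, as in 29.9% of all tested genes, while male groups overlapped. Ms4a1 and Blk passed the filter on low values only through the female controls, so their calls in the filtered fit are not independent of it. Without that filter Blk was called (limma adjusted p = 0.00589), and Cd79a and Ms4a1 were not (limma adjusted p = 0.0959 and 0.073). Pax5 and Ebf1, which the unfiltered fit also tests, were called (limma adjusted p = 0.017 and 0.0255), and Cd79b was not (0.136). The share of all genes called in the unfiltered fit is not given here. Cd79a and Ms4a1 also lost the call in 6 of the filtered fits that left out 1 library. The groups had 3 libraries each, too few to look for single outlying libraries.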

How the results depend on the processing

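The fall of the 4 tested genes in female knockouts held in all settings (Ms4a1 and Blk passed the filter only through the female controls), and the replicate block on the limma fit changed no count of members called (4 in females, 3 for the difference between sexes, 3 over both sexes, 0 in males). Over both sexes the count rose from 3 of the 4 genes tested to 6 of 6 with voom and with voom and the block. For the difference between sexes it rose from 3 of 4 to 5 of 6 with voom and the block. Over both sexes limma called 16.0% of its genes lower and voom 8.22%. Shares over all genes are not given for voom with the block or for fits with 1 library left out. Voom with the block and a median-ratio rescaling were chosen after seeing the data. Leaving out 1 library at a time gave 2 to 4 for female against male controls, 4 to 4 within females, 1 to 4 for the difference between sexes, 2 to 4 over both sexes and 0 to 0 in the other comparisons. Signs turned only among uncalled values. In males these were Cd79b with voom (-0.01) and Pax5 with voom (-0.33) and voom with the block (-0.10), and, over left-out libraries, Cd79a (-0.26 to 0.36), Cd79b (-0.18 to 0.15), Ms4a1 (-0.17 to 0.13) and Blk (-0.14 to 0.08). Between knockouts these were Blk (0.02 with a pseudocount of 0.1, 0.25 with voom, 0.03 on assigned reads, 0.14 with voom and the block, -0.11 to 0.12 over left-out libraries), Pax5 (0.21 with voom) and Cd79b (-0.28 to 0.05). The causes were not tested. Scaling to assigned reads moved the median of all genes by 0.17 for female against male controls and by -0.10 within females. Depth limits Ebf1 and Blk, which had 3 to 31 reads outside the female controls.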
